A study of Saccharomyces cerevisiae with 6 samples.

Results

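Yeast breaks down fatty acids only in its peroxisomes, and the genes of that pathway are described here across an experiment in which the frataxin gene was repressed. The set holds 10 genes: POX1, FOX2, POT1, FAA2, CTA1, ECI1, SPS19, PXA1, PXA2 and DCI1. They were chosen by name, with earlier results of these data known. Of these, 9 were among the 6174 open reading frames (ORFs) measured, and ECI1 (YLR284C) was not analysed here. After doxycycline in the strain with a repressible frataxin gene, POX1 fell 4.53-fold, and 7 of the other 8 measured genes had mean ratios between 1.68-fold and 4.46-fold below 1 that did not pass a test over all ORFs. PXA1 had a mean ratio of 1.15-fold above 1.

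In this pathway a fatty acid first crosses the peroxisomal membrane. The ABC transporter formed by Pxa1 and Pxa2 carries long-chain acyl-CoA, and Faa2 activates medium-chain fatty acids inside. Each turn of beta-oxidation then takes the acyl-CoA oxidase Pox1, the multifunctional enzyme Fox2 and the thiolase Pot1, and the catalase Cta1 removes the hydrogen peroxide that Pox1 makes. Unsaturated chains also need the isomerase Eci1 and the reductase Sps19. Dci1 is related in sequence to Eci1. The genes are known to be low on glucose, to be released on non-fermentable carbon by the activator Adr1 and to be induced on oleate by Oaf1 and Pip2.

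Transcript ratios came from 6 two-colour arrays of Saccharomyces cerevisiae. The strain tetYFH1 (BQS201, W303-1A with tetO7-YFH1::kanMX4) has its frataxin gene, YFH1, behind a promoter shut by doxycycline. W303-1A, its unmodified parent, is called W303 here. Both grew at 30 °C in YPG, a rich medium with glycerol, to an A600 of 0.5. On each array RNA from cells after 10 h with 2 µg/ml doxycycline was set against RNA from the same strain without the drug. In the titles the untreated cells are the 0 h sample, so drug and time cannot be told apart within a strain. For tetYFH1 there were 2 dye-swap pairs of arrays, A (A1 and A2) and B (B1 and B2), 4 arrays in all, and for W303 there was 1 pair (arrays 1 and 2). Because the tet promoter replaces YFH1's own, untreated tetYFH1 cells need not have the frataxin level of W303, and no array compared the strains directly. The labels do not state separate cultures for pairs or arrays, so a p-value here reflects only how far these samples spread, which may be technical variation. Each ratio averages over a whole culture, so a change in every cell and a change in some of the cells cannot be told apart.

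Every value below is a log2 ratio of treated over untreated, so −1 means that the treated cells had 0.5 of the untreated signal. Ratios say nothing of how abundant a transcript was. YFH1 (YDL120W), which checks the labels, read −2.64 and −3.29 on the pair A arrays, −5.38 and −5.11 on the pair B arrays, and −0.08 and −0.05 on the W303 arrays. Values were broader in pair B, with an SD over all ORFs of 0.744 on B1 and 0.654 on B2 against 0.392 to 0.459 on the other 4 arrays. An exactly whole log2 value was found for 42.2% of ORFs on B1 and 24.7% on B2, and for at most 0.13% on any other array. Of the 9 genes, 5 had such a value on B1 or B2 (POX1, POT1, SPS19, PXA2 and DCI1), against 52.2% of all ORFs. For these 5 the size of the change in pair B is uncertain, and leaving out ORFs with whole values, as done below, removes them. In that order, their tetYFH1 means were −1.86, −1.16, −0.92, −0.69 and −1.12 without pair B. Without B1 alone they were −1.93, −1.58, −0.94, −0.85 and −0.56. Without B2 alone they were −2.43, −1.58, −1.96, −0.85 and −0.94.

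**Figure D1:**
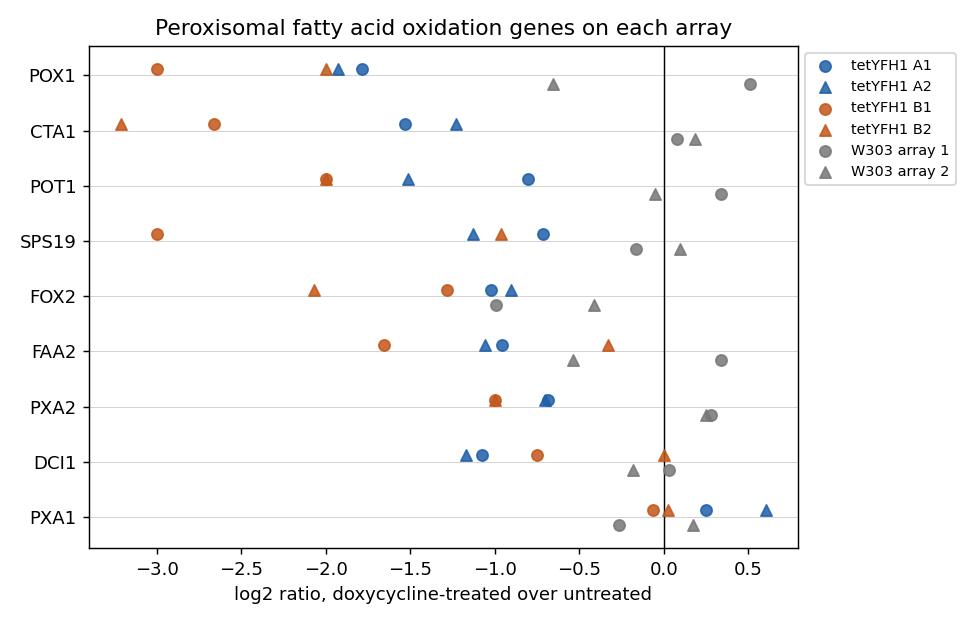
Log2 ratio of treated over untreated (horizontal axis) for each of the 9 measured genes (rows, ordered by the tetYFH1 mean). Circles are arrays with number 1 and triangles arrays with number 2, in blue for pair A, orange for pair B and grey for W303. From POX1 down to PXA2 all 4 tetYFH1 points lie left of 0, DCI1 reaches 0 on B2, and PXA1 lies around 0.

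Pairs A and B were averaged over their arrays, each counting as 1 replicate, and the mean of each strain was tested against 0 with limma over all 6174 ORFs. In tetYFH1 1 of the 9 genes, POX1, passed an adjusted p of 0.05, and it was lower; 0.405% of all ORFs passed in that direction. None passed in the higher direction, where 0% of ORFs did. Before adjustment, 8 of 9 had a p under 0.05 with a mean below 0, against 3.63% of all ORFs. Of the 9, 7 were below 0 on all 4 tetYFH1 arrays (6.75% of ORFs were) and 6 had a mean at least 2-fold lower (1.52% of ORFs). Since the set was chosen with earlier results of these data known, these counts describe it and are no independent test. The median of the 9 means was −1.32, beside 0.11 for all ORFs, and it was −1.01 in pair A and −1.68 in pair B. Without PXA1, the genes lay between percentiles 0.235 and 1.87 of all ORFs on A1 and between 0.251 and 2.26 on A2. In pair B they were more spread, reaching percentile 12.3 on B1 and 31.6 on B2, in both cases with DCI1.

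Among the 9 genes, POX1 and CTA1 had the lowest tetYFH1 means. POX1 (YGL205W), the acyl-CoA oxidase that opens each round of oxidation, read −1.79 and −1.93 in pair A, then −3 on B1 and −2 on B2. In W303 it read 0.51 and −0.66, so all tetYFH1 arrays were below both W303 arrays, which themselves fell on either side of 0. Its tetYFH1 mean was −2.18 ± 0.45 (SD, n = 2, 95% interval −2.75 to −1.61), with a limma adjusted p of 0.0177, and it ranked 14 from the lowest of 6174. Its pair A values differed by 0.141. The pair B values are whole and equal ratios of 0.125 and 0.25. On B1 15 ORFs had the value −3, and on B2 18 ORFs had −2. The adjusted p of POX1 missed the threshold with each array centred on its median (0.139), after scaling as well (0.0783), and without A2 (0.329), B1 (0.171) or B2 (0.836), while the mean stayed between −2.50 and −1.86 over the 16 alternatives it entered.

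FOX2 (YKR009C), whose product performs both the hydratase and the dehydrogenase step, read −1.02, −0.91, −1.28 and −2.07 on A1, A2, B1 and B2. It was the 1 member below 0 on all 6 arrays, with −0.99 and −0.41 in W303, so that W303 array 1 lay within the range of tetYFH1. No value of FOX2 is whole. The tetYFH1 mean was −1.32 ± 0.50 (SD, n = 2, limma adjusted p 0.124) and the W303 mean −0.70 (95% interval −1.53 to 0.13). In W303 it ranked 196 from the lowest of 6174.

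POT1 (YIL160C), the thiolase that releases acetyl-CoA, read −0.80 and −1.51 in pair A and −2 on both arrays of pair B. On the W303 arrays it read 0.34 and −0.05, above every tetYFH1 value. Its mean in tetYFH1 was −1.58 ± 0.60 (SD, n = 2), with a limma adjusted p of 0.085. The arrays of pair A differed by 0.714, the widest gap there among the 9 genes.

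CTA1 (YDR256C), the peroxisomal catalase, read −1.53 and −1.23 in pair A, and −2.66 and −3.21 in pair B. These 4 values were all below the W303 arrays, at 0.08 and 0.18, and none of them is whole. The pairs differed in size, −1.38 in pair A and −2.94 in pair B, which was the largest gap between pairs among the members. The mean of −2.16 ± 1.10 (SD, n = 2) was close to that of POX1, but its spread was wider and its limma adjusted p was 0.0797. On B2 the ratio of CTA1 was lower than that of every other member.

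At the entrance to the pathway stand the transporter genes and FAA2. PXA2 (YKL188C), one subunit of the acyl-CoA transporter, read −0.68 and −0.70 in pair A and −1 on both arrays of pair B. In W303 it read 0.28 and 0.25, so the strains did not overlap, and its replicate spread was among the narrowest (mean −0.85 ± 0.22, SD, n = 2, limma adjusted p 0.356). On B1 382 ORFs and on B2 111 ORFs had the value −1, so its pair B values are shared with many genes. PXA1 (YPL147W), the other subunit, read 0.25, 0.60, −0.06 and 0.02 in tetYFH1 and −0.26 and 0.17 in W303. Its values lay on both sides of 0 in both strains, with a tetYFH1 mean of 0.20 ± 0.32 (SD, n = 2, limma adjusted p 0.8) and a rank of 3955 from the lowest.

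The genes of the transporter's subunits thus had unlike ratios within every tetYFH1 array. PXA1 exceeded PXA2 by 0.93 and 1.31 on the arrays of pair A and by 0.94 and 1.02 on those of pair B. In W303 PXA1 was below PXA2 by 0.54 and 0.08. With 2 pairs against 1, the smallest p of an exact permutation test is 0.333, so this contrast is a description. The comparison is between ratios of different probes, not between transcript levels.

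FAA2 (YER015W), the medium-chain acyl-CoA synthetase, read −0.96, −1.06, −1.66 and −0.33 on A1, A2, B1 and B2. The pair means almost coincided at −1.01 and −0.99, but the arrays of pair B differed by 1.33, and B2 lay within the W303 range of 0.34 to −0.54. Its mean was −1.001 (limma SE 0.22, adjusted p 0.208). The SD over pairs, 0.01, therefore understates the spread between arrays.

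Of the genes for unsaturated chains, SPS19 (YNL202W), the dienoyl-CoA reductase, read −0.71, −1.13, −3 and −0.96 on A1, A2, B1 and B2. B1 stood far below the other arrays, and with POX1 it shares the whole value −3 there. All 4 values were below the W303 arrays, at −0.17 and 0.09. The mean of −1.45 ± 0.75 (SD, n = 2, limma adjusted p 0.148) became −0.94 without B1.

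DCI1 (YOR180C), annotated as a dienoyl-CoA isomerase from its likeness to Eci1, was lower in pair A than in pair B, by 0.75. It read −1.08 and −1.17 in pair A, −0.75 on B1 and exactly 0 on B2. In W303 it read 0.03 and −0.18, so B2 lay inside the W303 range and the strains overlapped. Its mean was −0.75 ± 0.53 (SD, n = 2, limma adjusted p 0.501). A value of exactly 0 was shared by 880 ORFs on B2.

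**Figure D2:**
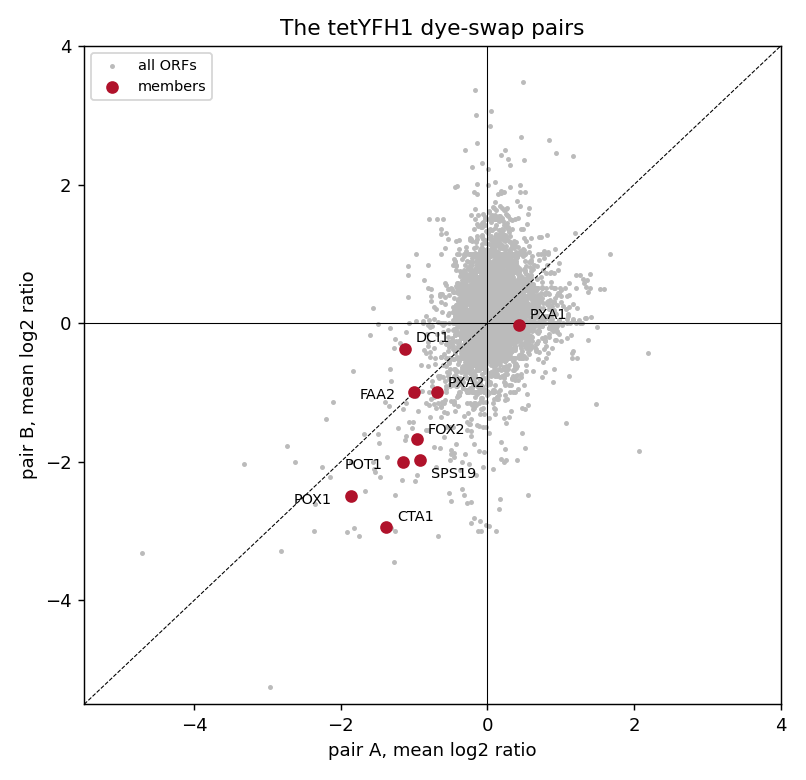
Mean log2 ratio of pair A (horizontal) against pair B (vertical) for all 6174 ORFs in grey and the 9 members in red, with the line of equality dashed. Of the members 7 lie below the line, FAA2 lies on it, DCI1 lies above it, and PXA1 is the 1 member with a pair A value above 0.

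Of the 9 genes, 7 were lower in pair B than in pair A, against 42.7% of all ORFs, with a median difference of −0.64 beside 0.08 for all ORFs. Values in pair B were broader over all ORFs, and YFH1, not a member, also went from −2.97 in pair A to −5.24 in pair B. Whether the difference is particular to the members or goes with the broader values was not tested. The median gap between the arrays of a pair was 0.14 in pair A and 0.75 in pair B for the members, against 0.20 and 0.49 for all ORFs.  Where pair B was left out and the other arrays were entered singly, 8 of 9 genes, all but PXA1, passed in the lower direction with limma, against 1.81% of ORFs. Without pair A the genes POX1, FOX2, POT1 and CTA1 passed, 4 of 9, against 1.36%. With all 6 arrays entered singly 5 passed (the same 4 and PXA2), against 1.1%, and with the dye orientation as a replicate block those 4 did, against 0.858%. Without ORFs that had whole values on B1 or B2, 4 members were left and none passed, against 0.102%. Arrays of a pair differ in dye and, as far as the labels show, not in RNA, so entering them singly counts technical repeats. After centring of the arrays 0 of 9 passed, and 0 ORFs in all did.

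Ordered by their tetYFH1 mean, the genes ran from POX1 and CTA1 through POT1, SPS19, FOX2, FAA2, PXA2 and DCI1 to PXA1. Neighbours in this order did not differ beyond their spread: each 95% interval included the mean of the next gene, except that DCI1's interval (−1.35 to −0.15) did not reach the mean of PXA1. Nor does this order hold in each pair, since CTA1 was lowest in pair B and POX1 in pair A.

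The W303 arrays served as the control for the drug and the time. There the 9 genes lay close to 0 apart from FOX2, between −0.10 and 0.26, with a median over the 9 of −0.04 beside 0.05 for all ORFs. None passed in W303 with limma in either direction, as was true of all ORFs (0%), and none of the 9 had an unadjusted p under 0.05, against 2.62% of ORFs. Since W303 had 1 pair, its spread was taken from tetYFH1, and intervals were wide: that of POX1 ran from −0.88 to 0.74 and that of CTA1 from −1.04 to 1.30. The arrays themselves disagreed by 1.17 for POX1 and 0.878 for FAA2. The direction of the W303 ratios rests on the labels alone, because no gene there checks it.

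The difference between the strains, which takes the W303 response away from that of tetYFH1, was, among the 9 genes, largest for CTA1 and POX1. CTA1 differed by −2.29 (SE 0.62, 95% interval −3.72 to −0.85) and POX1 by −2.11 (SE 0.43, −3.10 to −1.12), but the limma adjusted p was 0.782 and 0.571. POT1 had −1.72 (−2.79 to −0.65), SPS19 −1.41 (−2.58 to −0.25), PXA2 −1.11 (−2.01 to −0.21) and FAA2 −0.90 (−1.78 to −0.03). For FOX2, which was below 0 in both strains, the difference was −0.62 with an interval from −1.64 to 0.40 that includes 0. DCI1 (−0.67) and PXA1 (0.25) had intervals that include 0 too. None of the 9 passed over all ORFs, where 0% did with limma, and 6 of 9 had an unadjusted p under 0.05 in the lower direction, against 2.54% of ORFs. Without pair A, the difference passed for POT1 and CTA1 (0.891% of ORFs passed lower), and without pair B for these and POX1 (1.31%), again with arrays entered singly. For 5 of 9 (POX1, POT1, CTA1, SPS19 and PXA2) every tetYFH1 array was below both W303 arrays, against 9.31% of ORFs.

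**Figure D3:**
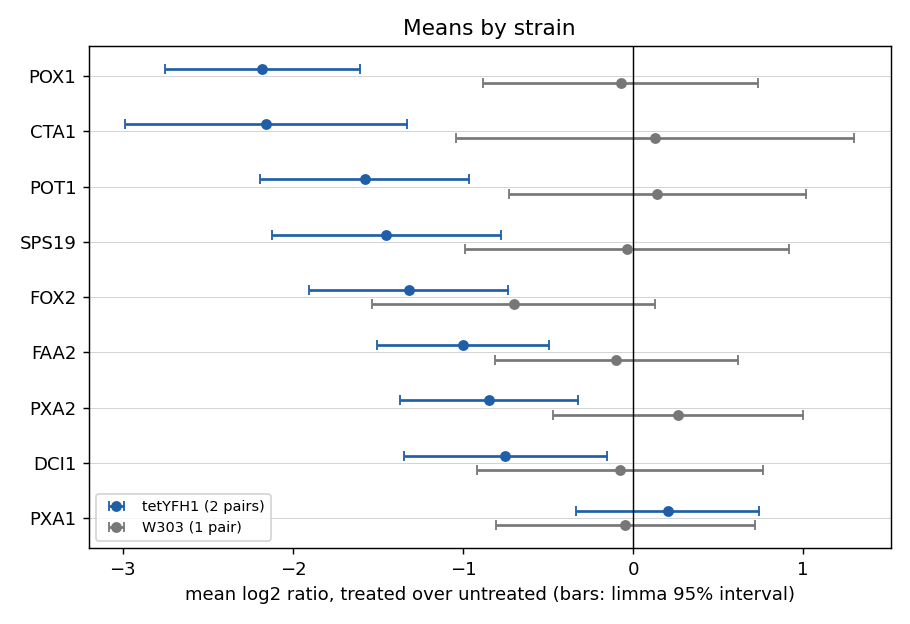
Mean log2 ratio of treated over untreated with limma's 95% interval for each gene, in blue for tetYFH1 (2 pairs) and grey for W303 (1 pair, spread taken from tetYFH1). In tetYFH1 the interval excludes 0 for every gene but PXA1, before adjustment over all ORFs, and in W303 each interval includes 0.

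The members lie on 8 chromosomes, and the genes beside them were described as well. Whether whole stretches moved was not tested. Of 17 measured neighbouring genes in the order of the R64 annotation, 4 had a tetYFH1 mean below 0, against 34.2% of all ORFs. None of the neighbours was at least 2-fold lower (1.52% of all ORFs were). None passed with limma, against 0.405% of all ORFs in the lower direction. Their means ran from −0.58 (HYM1, beside PXA2) to 0.59 (LAS17, beside DCI1), with a median of 0.14. SPS18, which is transcribed away from SPS19 across a shared upstream region and was picked here after its value was seen, had 0.21 where SPS19 had −1.45. The neighbours of the gene not analysed here, PUT7 and NNT1, had 0.24 and 0.45.

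The rest of the peroxisome was then described from 4 lists, none of which held a gene past the threshold in either direction in tetYFH1. The 14 auxiliary peroxisomal enzymes and carriers had a median of −0.23 with 10 below 0, which is 71.4% against 34.2% of all ORFs. Before adjustment 3 of them had a limma p under 0.05, all lower, against 3.63% of all ORFs in that direction. Without ORFs with whole values on B1 or B2, 4 genes of the list were left and their median was 0.17. IDP3, the peroxisomal isocitrate dehydrogenase that supplies NADPH to Sps19, had −0.63 ± 0.33 (SD, n = 2) with −0.82 and −0.91 in pair A, −1 on B1 and 0.22 on B2. The B2 value was above both W303 arrays (−0.13 and 0.20). CAT2, the carnitine acetyltransferase that passes acetyl units on to mitochondria, had −0.60 ± 0.51, and the thioesterase TES1 had −0.50 ± 0.01 (SD, n = 2, limma adjusted p 0.514 and 0.525). Single arrays of TES1 lay farther apart, since it read −0.28 and −0.74 in pair A and the whole values 0 and −1 in pair B. CIT2, the peroxisomal citrate synthase, had −0.93 ± 0.99 in tetYFH1, with −1.62 in pair B and −0.23 in pair A, and 1.57 and 2.0 on the W303 arrays.

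The 27 peroxins, which build the organelle and import its proteins, had a median of −0.07, with 18 below 0 (66.7% against 34.2% of all ORFs). Before adjustment 3 of them had a limma p under 0.05 with a mean below 0, against 3.63% of all ORFs. In the higher direction 1 peroxin had such a p, as did 360 of the 6174 ORFs, so the list did not move in 1 direction. PEX11, a membrane protein needed for peroxisome division and known to be induced by oleate, had −0.72 ± 0.10 (SD, n = 2, limma adjusted p 0.441) and was below 0 on all 4 arrays. Its pair B arrays read −0.16 and −1.42. PEX14, the docking factor, had −0.64 ± 0.42 and PEX30 −0.53 ± 0.24 (SD, n = 2). No peroxin had a mean as low as PXA2.

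The 13 genes of the regulators had a median of −0.13, beside 0.11 for all ORFs. Of them 9 were below 0, which is 69.2% against 34.2% of all ORFs. None had an unadjusted p under 0.05 with limma, against 3.63% of all ORFs in the lower direction. ADR1 had 0.16 ± 0.05, OAF1 −0.13 ± 0.02 and PIP2 −0.32 ± 0.09 (SD, n = 2, limma adjusted p 0.83, 0.866 and 0.663). Single arrays spread more, from −0.11 to 0.39 for ADR1, from −0.33 to 0.04 for OAF1 and from −0.52 to 0 for PIP2. The lowest were SIP2 (−0.39), a subunit of the Snf1 kinase, and PIP2, followed by CAT8 (−0.29) and MIG1 (−0.26). These are transcript ratios and say nothing of the activity of the factors.

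The 14 genes that make, activate or release fatty acids outside the peroxisome had a median of 0.20, with 6 below 0 (42.9% against 34.2% of all ORFs). FAA1, the main long-chain acyl-CoA synthetase, read 1.70, 0.92, 0.28 and 1 on A1, A2, B1 and B2, with a mean of 0.97 ± 0.47 (SD, n = 2, limma adjusted p 0.328), while FAA2 had a mean of −1.001. The elongases ELO3 (0.92 ± 0.89) and ELO2 (0.64 ± 0.73) were higher in pair B than in pair A. FAA3 had 1.60 ± 2.50 through B1 alone, where it read 6.19. The median of this list became −0.12 without pair B and −0.11 over the 5 genes left without whole values on B1 or B2.

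**Figure D4:**
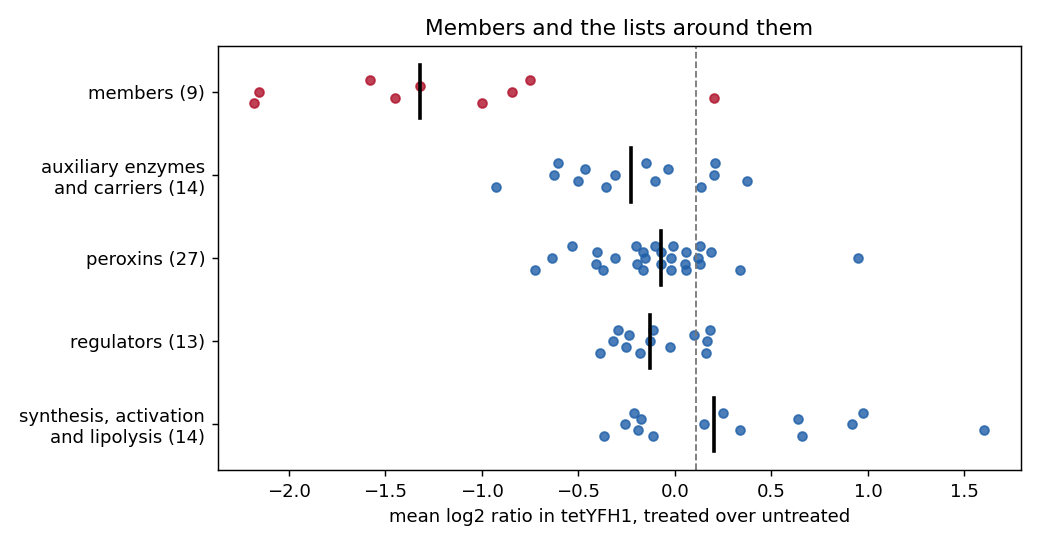
Mean log2 ratio in tetYFH1 for each gene of the members (red) and of the 4 lists around them (blue), with the number of genes in parentheses, a black bar at each median and a dashed line at the median of all ORFs (0.11). The members' median is −1.32, and those of the lists lie between −0.23 and 0.20.

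The genes most like the members were sought by the root mean square difference of their log2 ratios from the members' median over the 6 arrays, which was −0.96, −1.13, −1.66 and −1 in tetYFH1 and 0.08 and −0.05 in W303. The closest was YAT2, a carnitine acetyltransferase, with a difference of 0.203, a tetYFH1 mean of −1.11 ± 0.22 and a W303 mean of 0.27. MIH1 (a cell cycle phosphatase, 0.22), UBP13 (a ubiquitin protease, 0.255), YIG1 (0.274), ETR1 (an enoyl reductase of mitochondrial fatty acid synthesis, 0.291) and GCY1 (a glycerol dehydrogenase, 0.309) followed. Among the members FAA2 (0.356) and PXA2 (0.37) were closest to the median and PXA1 (1.17) and CTA1 (1.02) farthest. None of the 6 genes from YAT2 to GCY1 passed in tetYFH1 with limma, at adjusted p values from 0.0797 to 0.351. Of all ORFs, 0.405% passed in the lower direction. The 6 were picked by their values on these same arrays, so their means and p-values are no separate support.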

How the data were processed

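For each of 6174 ORFs the authors deposited a log2 ratio from every array, with 0 missing values, which the labels describe as treated over untreated in both dye orientations; 8 µg of total RNA was labelled with Cy5 or Cy3, per the labels' protocols. How arrays were scanned, corrected for background and normalized is, like the type of probe, not given in the sources used here. The log base was read from the values: 2 raised to the value had 3 decimals for 100% of ORFs on B1 and B2 (tolerance 0.001 in the last decimal). On A1, A2 and the W303 arrays this held for only 48.0% to 50.2% of ORFs. ORF names were matched to R64 locus tags for symbols and gene order: 5675 matched and 499 did not.

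The values were used as deposited. Means of dye-swap pairs were fitted with limma 3.58.1 in R 4.3.3, with 1 coefficient per strain and 1 residual and 6.64 prior degrees of freedom, two-sided, Benjamini-Hochberg adjusted over all ORFs (threshold 0.05). W303 has 1 pair and was assumed to vary like tetYFH1. The procedure was run on simulated pair means drawn as independent normal values. They had no whole values and no wider spread in pair B, so the run cannot speak to those features of the data. The number of arrays limits precision. Members and lists were chosen with earlier results of these data known. Genes were named by rule: all members, YFH1, and per list each gene past the threshold, the 4 of smallest p, and ADR1, OAF1 and PIP2; the 6 genes most like the members' median were added. A gene that this rule selected is not reported here. Genes beside members were named after their values were seen. The Exp number is shared by the strains; per the labels' dyes it goes with the dye orientation, and whether it marks a shared culture or day is not given in the sources used here; the deviations of same-numbered arrays correlated at −0.175. Alternatives were the replicate unit, blocks, centring, scaling, robust moderation, thresholds, omission of whole-valued ORFs, the sign of W303, tetYFH1 alone, and omission of each array and pair.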

Additional observations from a re-analysis of the deposited data

Results flagged for a closer look

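For CTA1 and PXA2 every tetYFH1 array was below 0 and both W303 arrays were above 0. The share of all ORFs with such opposite signs was not counted. The wider rule of every tetYFH1 array below both W303 arrays was met by 9.31% of ORFs. CTA1 differed between the strains by −2.29, from tetYFH1 values between −3.21 and −1.23 to W303 values of 0.08 and 0.18. PXA2 differed by −1.11, from values between −1 and −0.68 to values of 0.28 and 0.25. The limma test of the difference did not pass over all ORFs for either gene (adjusted p 0.782 and 0.784), and the sign of the W303 ratios rests on the labels.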

How the results depend on the processing

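The number of tetYFH1 ORFs past the threshold (25) became 86 with each array as a replicate, 59 with the Exp number as a replicate block as well, 99 with dye-swap pairs as a random block, 0 after centring or centring with scaling, 3 without ORFs with whole values on B1 or B2 and 39 at an adjusted p of 0.1. The corresponding counts of members (1 of 9 as reported) were 5, 4, 5, 0, 0, 0 (of the 4 left) and 3. Omitting arrays or pairs gave 0 to 300 ORFs and 0 to 8 members, with 0 of either without A2, B1 or B2; where a pair is left out the arrays left are entered singly, so 2 choices change. In W303 2 ORFs passed with each array as a replicate, 3 with the random block and 0 to 281 on omission (281 without pair B), never a member. For the difference 8, 4 and 10 ORFs passed in the 3 fits on single arrays, 3 with the W303 sign turned and 0 to 140 on omission, with 0 to 3 members (POT1 and CTA1 without pair A, and POX1 too without pair B). Robust moderation and tetYFH1 alone left the counts within 1.5 times. The cause of these changes was not tested.

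The tetYFH1 mean kept its sign for every member but PXA1 under the alternatives run; PXA1 lay between −0.021 (without pair A) and 0.43 (without pair B). With the W303 sign turned, the W303 means become 0.072 (POX1), 0.70 (FOX2), −0.14 (POT1), 0.10 (FAA2), −0.13 (CTA1), 0.036 (SPS19), 0.044 (PXA1), −0.26 (PXA2) and 0.077 (DCI1). On omission of arrays or pairs the W303 mean ran from −0.66 to 0.51 for POX1, −0.051 to 0.34 for POT1, −0.54 to 0.34 for FAA2, −0.17 to 0.094 for SPS19, −0.26 to 0.17 for PXA1 and −0.18 to 0.031 for DCI1. The strain difference kept its sign for all 9 in every alternative that gave it, but its size moved by over 1.5 times for all but POX1 and POT1. Without pair A it became −0.30 for DCI1, −0.98 for FOX2 and 0.0235 for PXA1, and without pair B −1.05, −0.26 and 0.47, with −1.51 for CTA1 and −0.88 for SPS19. Without B1 it was −0.57 for FAA2 and −0.90 for SPS19, and without A2 0.16 for PXA1. Without W303 array 1 it was −0.46 for FAA2 and 0.0295 for PXA1, and without W303 array 2 −0.33 for FOX2 and 0.47 for PXA1. With the W303 sign turned it was −2.02 for FOX2, −0.58 for PXA2 and 0.16 for PXA1.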
